A study of Mus musculus with 12 samples.

Results

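Transcript levels of 8 genes of blood vessel growth were described across adipose depots and cell fractions of the mouse: the VEGF family ligands Vegfa, Vegfb, Vegfc and Pgf, the angiopoietins Angpt1 and Angpt2, and the neuropilins Nrp1 and Nrp2. They were chosen by gene symbol, as 8 of the 24890 features in the deposited tables, and each symbol stood at a single locus. The libraries came from inguinal adipose tissue (IAT), a subcutaneous depot, and epididymal adipose tissue (EAT), a visceral depot, of C57BL/6J males. All mice were 18 weeks old and ate a normal chow diet, with no other treatment. Collagenase I had been used to part each depot into adipocytes and stromal vascular cells (SVCs), the mixture of blood vessel, progenitor, immune and other cells that remains. The 4 groups, IAT adipocytes, EAT adipocytes, IAT SVCs and EAT SVCs, had 3 libraries each. Whether a library came from a single mouse or from pooled mice is not given in the labels, so the spread behind each p is that between libraries and may be technical.

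VEGF ligands are secreted proteins that act on receptor tyrosine kinases of endothelial cells. VEGF-A binds Flt1 and Kdr, VEGF-B and placental growth factor (Pgf) bind Flt1, and VEGF-C acts on Flt4, the main receptor of lymphatic endothelium. Angiopoietins bind Tek (Tie2): Angpt1 activates it and steadies the vessel wall, while Angpt2 acts as an antagonist or a partial agonist depending on the setting. Neuropilins are co-receptors that bind both VEGF and class 3 semaphorins, and fat cells are a known source of VEGF-A in adipose tissue.

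Levels are in FPKM (fragments per kilobase of transcript and per M, or mega, of mapped fragments), a scale per length, so that genes can be set side by side. Values after ± are SDs over 3 libraries for levels and standard errors for log2 differences, which are of log2(FPKM + 1) and so understate the change of low genes. Tests are limma's, two-sided, with Benjamini-Hochberg adjustment over the 13175 features that reached 1 FPKM in at least 3 libraries, and an adjusted p under 0.05 was called. All 8 genes passed that filter. Vegfc passed it through the SVC libraries, since 2 of its 6 adipocyte values reached 1 FPKM. An estimated 14.2 to 24.7 M gene fragments stood behind each library. The 8 adipocyte markers summed to 27452 to 30739 FPKM in IAT adipocytes, 22803 to 29371 FPKM in EAT adipocytes, 185 to 211 FPKM in IAT SVCs and 66.1 to 80.3 FPKM in EAT SVCs. The 15 endothelial markers summed to 245 to 333 FPKM in IAT adipocytes, 222 to 249 FPKM in EAT adipocytes, 1317 to 1641 FPKM in IAT SVCs and 1204 to 1266 FPKM in EAT SVCs, so the labels' fractions held their defining markers and the adipocyte libraries also held endothelial transcripts. EAT adipocyte replicate 1 was the lowest of its group for the receptors Flt1, Kdr, Flt4, Tek and Tie1. Flt1 was at 2.16 FPKM there, against 5.71 and 5.40 FPKM in the other EAT adipocyte libraries, and Tie1 at 9.58 FPKM against 10.6 and 11.4 FPKM. The sum of the 15 endothelial markers was 249 FPKM in replicate 1, against 222 and 234 FPKM in the other EAT adipocyte libraries. That sum is weighted to the most abundant markers, and Kdr and Tie1 are among the 15.

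Vegfa and Vegfb were the VEGF ligands of the adipocyte fraction. Vegfa was at 141, 161 and 165 FPKM in IAT adipocytes, 108, 135 and 122 FPKM in EAT adipocytes, 29.9, 28.2 and 31.0 FPKM in IAT SVCs, and 19.5, 19.1 and 17.6 FPKM in EAT SVCs. The groups followed that order without any overlap between neighbours. Adipocytes held 5.24 times the SVC mean in IAT (log2 difference 2.35 ± 0.09, adjusted p = 5.8e-11) and 6.51 times in EAT (2.63 ± 0.09, adjusted p = 2.2e-11). In IAT adipocytes, 96.4% of the features listed lay below the mean level of Vegfa, and in EAT SVCs 72.9% did. In these bulk libraries a smaller number of cells of a type and less RNA per cell cannot be told apart.

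Vegfb, a ligand of Flt1 that is high in tissues that burn fatty acids, differed more between the fractions. Its levels were 156, 163 and 149.7 FPKM in IAT adipocytes, 166, 139 and 142 FPKM in EAT adipocytes, 11.5, 13.8 and 10.9 FPKM in IAT SVCs, and 9.17, 10.1 and 8.55 FPKM in EAT SVCs. Every adipocyte library stood far above every SVC library, and the adipocytes of the depots overlapped. Adipocytes held 13.0 times the SVC mean in IAT (log2 difference 3.60 ± 0.10, adjusted p = 2.5e-12) and 16.0 times in EAT (3.86 ± 0.10, adjusted p = 1.4e-12). The ratio of Vegfa to Vegfb was 0.997 ± 0.101 in IAT adipocytes, 0.829 ± 0.161 in EAT adipocytes, 2.49 ± 0.404 in IAT SVCs and 2.02 ± 0.125 in EAT SVCs. Both ligands were thus at like levels in adipocytes, and Vegfa was the higher of the pair in every SVC library.

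Vegfc, the lymphangiogenic ligand, ran the other way. It was at 0.802, 1.09 and 1.18 FPKM in IAT adipocytes, 0.835, 0.739 and 0.870 FPKM in EAT adipocytes, 15.4, 15.0 and 14.5 FPKM in IAT SVCs, and 16.7, 19.2 and 17.4 FPKM in EAT SVCs. The fractions did not overlap in either depot, and the adipocyte values lay near the filter. Vegfc passed the filter through the SVC libraries, where it is high, so its calls between fractions are not independent of the filter. Vegfc fell in adipocytes relative to SVCs, to 6.85% of the SVC mean in IAT (log2 difference -2.98 ± 0.08, adjusted p = 3.4e-12) and 4.59% in EAT (-3.37 ± 0.08, adjusted p = 1.3e-12). The authors' confidence bounds lay 26.7% to 35.0% from its value in adipocyte libraries and 5.59% to 8.24% in SVC libraries, for counting error only.

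The promoters of these 3 ligands are shown because the genes stand at the extremes of the fraction difference in both directions. Each is the stretch of 250 bases before a RefSeq start (GRCm38.p6), for Vegfa the upstream one of its 2 starts, 5′ to 3′ on the gene's strand, with GC boxes (GGGCGG or its reverse complement CCGCCC, neighbouring copies counted apart) in capitals. Gene positions are those of the deposited tables (mm10). Vegfa lies at chr17:46016993-46032377 on the minus strand and its window at chr17:46032378-46032627, Vegfb at chr19:6982472-6987651 on the minus strand with its window at chr19:6987652-6987901, and Vegfc at chr8:54077532-54186454 on the plus strand with its window at chr8:54077282-54077531.
Vegfa: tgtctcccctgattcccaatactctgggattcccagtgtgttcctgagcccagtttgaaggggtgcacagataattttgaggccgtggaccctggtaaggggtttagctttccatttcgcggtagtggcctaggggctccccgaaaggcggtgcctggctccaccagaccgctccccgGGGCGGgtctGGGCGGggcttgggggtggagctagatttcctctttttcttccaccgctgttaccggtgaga
Vegfb: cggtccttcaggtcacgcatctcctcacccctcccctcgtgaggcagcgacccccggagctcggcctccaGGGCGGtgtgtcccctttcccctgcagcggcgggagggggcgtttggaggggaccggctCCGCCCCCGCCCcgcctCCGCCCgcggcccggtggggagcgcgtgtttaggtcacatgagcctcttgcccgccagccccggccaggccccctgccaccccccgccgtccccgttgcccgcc
Vegfc: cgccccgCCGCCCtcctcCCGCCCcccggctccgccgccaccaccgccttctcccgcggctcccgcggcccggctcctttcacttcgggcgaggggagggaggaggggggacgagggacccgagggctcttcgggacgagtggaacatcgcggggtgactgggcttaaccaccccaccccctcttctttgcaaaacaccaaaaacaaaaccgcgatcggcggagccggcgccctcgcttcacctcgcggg
The Vegfa window held 2 GC boxes, the Vegfb window 4 and the Vegfc window 2, and 32.7% of 32851 promoter windows of that length held at least 1. The share of G and C was 59.2% for Vegfa, 76.4% for Vegfb and 71.6% for Vegfc, beside a median of 52.4% over all windows. The letters GCGTG, a core of hypoxia response elements, stood at 2 places in the Vegfb window on either strand, in neither of the others, and in 28.2% of all windows. The other core, ACGTG, was in none of these 3 windows and in 16.6% of all windows. RefSeq lists a second Vegfa start, inside the gene, and its window (chr17:46025164-46025413, not printed) held ACGTG at 1 place, GCGTG at 1 place and 1 GC box. These matches describe the letters of the windows only. Sequence entries were present for 6 of the 8 genes, and Angpt1 and Angpt2 are named only.

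Pgf (chr12:85166639-85177313, minus strand) was low in adipocytes and varied more between libraries than the other ligands. It was at 2.56, 1.47 and 1.84 FPKM in IAT adipocytes, 3.45, 2.36 and 2.09 FPKM in EAT adipocytes, 12.7, 6.71 and 9.35 FPKM in IAT SVCs, and 17.9, 14.6 and 17.9 FPKM in EAT SVCs. The fractions did not overlap, and IAT SVC replicate 1 was the highest of its group and replicate 2 the lowest. Pgf fell in adipocytes relative to SVCs, to 20.4% of the SVC mean in IAT (log2 difference -1.82 ± 0.20, adjusted p = 2.2e-06) and 15.7% in EAT (-2.30 ± 0.20, adjusted p = 2.0e-07).

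**Figure D1:**
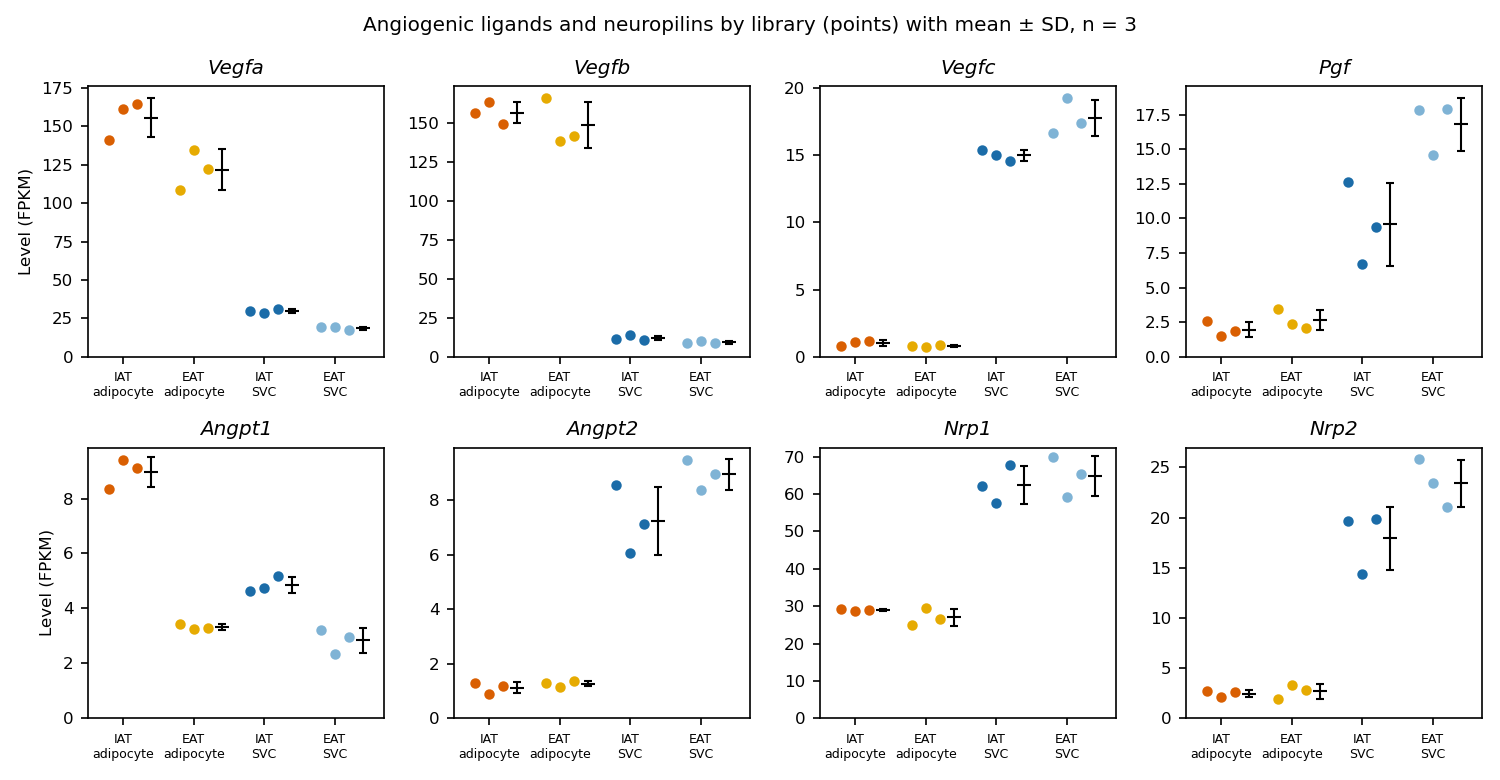
Levels in FPKM of the 8 genes (a panel each) in IAT adipocytes, EAT adipocytes, IAT SVCs and EAT SVCs, with a point per library and the mean ± SD (n = 3) beside the points. Vegfa and Vegfb are highest in adipocytes, Vegfc, Pgf, Angpt2 and both neuropilins in SVCs, and Angpt1 in IAT adipocytes (8.36 to 9.42 FPKM).

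The fractions differed in the make-up of the VEGF family as well as in its amount. Figf, the older symbol of Vegfd, the other lymphangiogenic ligand, was added to the 4 listed ligands for this sum. The 5 ligands summed to 330.1 ± 12.0 FPKM in IAT adipocytes, 286 ± 6.04 FPKM in EAT adipocytes, 86.3 ± 2.68 FPKM in IAT SVCs and 101 ± 1.46 FPKM in EAT SVCs. Vegfa and Vegfb together made up 94.5 ± 0.762% of that sum in IAT adipocytes, 94.6 ± 0.527% in EAT adipocytes, 48.5 ± 1.82% in IAT SVCs and 27.7 ± 1.51% in EAT SVCs. The share was alike in the adipocytes of the depots and did not overlap between the SVCs of the depots. Figf itself was 23.1 ± 1.01% of the sum in IAT SVCs and 38.1 ± 0.773% in EAT SVCs. The shares and ratios, here and below, are descriptions, and no test was run on them.

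**Figure D2:**
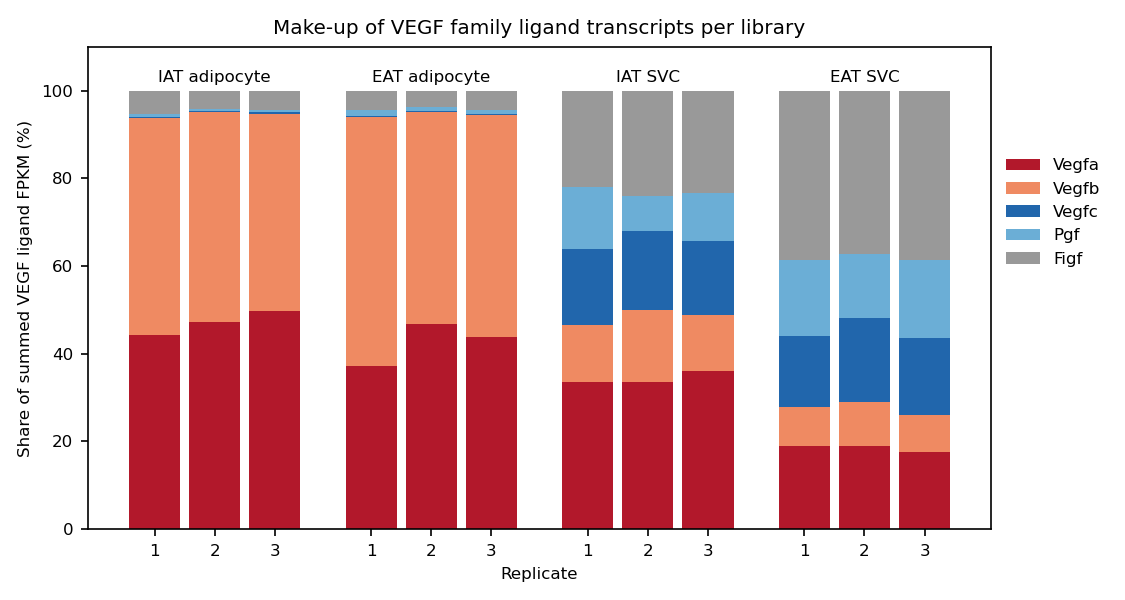
Share in percent of the summed FPKM of Vegfa, Vegfb, Vegfc, Pgf and Figf that each ligand made up, as stacked bars with 1 bar per library (replicates 1 to 3 of IAT adipocytes, EAT adipocytes, IAT SVCs and EAT SVCs). Vegfa and Vegfb fill 93.7% to 95.2% of the bars of adipocytes and 26.1% to 50.1% of the bars of SVCs.

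Angpt1 differed from the other 7 genes in its order of groups: IAT adipocytes were highest, and EAT adipocytes lay below IAT SVCs. It was at 8.36, 9.42 and 9.09 FPKM in IAT adipocytes, 3.44, 3.26 and 3.28 FPKM in EAT adipocytes, 4.65, 4.73 and 5.19 FPKM in IAT SVCs, and 3.21, 2.34 and 2.98 FPKM in EAT SVCs. The IAT adipocyte libraries stood above all others, the IAT SVC libraries came next, and both EAT groups lay close together without overlap. In IAT, adipocytes held 1.84 times the SVC mean (log2 difference 0.76 ± 0.09, adjusted p = 3.3e-06). In EAT, the ratio was 1.17 and the difference of 0.18 ± 0.09 did not pass the test (adjusted p = 0.0797). It passed with median-of-ratios scaling (0.47, adjusted p = 2.3e-04) and without EAT SVC replicate 1 (adjusted p = 0.0301). The locus at chr15:42424667-42676977 on the minus strand shares exon bases with Gm17473 on the opposite strand in GENCODE, and whether strand was used in counting is not given, so reads of the pair cannot be told apart.

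Angpt2, which opens the vessel wall to remodelling, belonged to the SVC side. It was at 1.28, 0.901 and 1.20 FPKM in IAT adipocytes, 1.30, 1.16 and 1.35 FPKM in EAT adipocytes, 8.57, 6.08 and 7.11 FPKM in IAT SVCs, and 9.49, 8.37 and 8.98 FPKM in EAT SVCs. Every SVC library was above every adipocyte library, while the depots overlapped within each fraction. Angpt2 fell in adipocytes relative to SVCs, to 15.6% of the SVC mean in IAT (log2 difference -1.95 ± 0.11, adjusted p = 1.9e-09) and 14.2% in EAT (-2.13 ± 0.11, adjusted p = 7.9e-10). The locus, at chr8:18690263-18741562 on the minus strand, lies within that of Mcph1, a gene on the other strand at 3.16 to 3.53 FPKM in IAT adipocytes and 0.715 to 0.788 FPKM in IAT SVCs, and no exon bases are shared in GENCODE.

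The balance of the angiopoietins therefore stood on opposite sides of 1 in the fractions. The ratio of Angpt1 to Angpt2 was 6.51, 10.5 and 7.58 in IAT adipocytes, 2.65, 2.81 and 2.43 in EAT adipocytes, 0.543, 0.779 and 0.730 in IAT SVCs, and 0.339, 0.280 and 0.331 in EAT SVCs. No group overlapped another, and within each fraction the IAT libraries had the higher ratio.

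Nrp1 (chr8:128359073-128505475, plus strand) was the most abundant of the genes on the SVC side and the least different between fractions among those called lower in adipocytes of both depots. It was at 29.2, 28.8 and 29.1 FPKM in IAT adipocytes, 25.1, 29.5 and 26.6 FPKM in EAT adipocytes, 62.1, 57.6 and 67.6 FPKM in IAT SVCs, and 69.9, 59.2 and 65.2 FPKM in EAT SVCs. The fractions did not overlap and the depots did within each fraction. Nrp1 fell in adipocytes relative to SVCs, to 46.5% of the SVC mean in IAT (log2 difference -1.08 ± 0.08, adjusted p = 7.1e-08) and 41.7% in EAT (-1.23 ± 0.08, adjusted p = 1.8e-08).

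Nrp2 (chr1:62703317-62818692, plus strand), the neuropilin of lymphatic and venous endothelium and the partner of VEGF-C, differed by a larger step. It was at 2.70, 2.08 and 2.58 FPKM in IAT adipocytes, 1.90, 3.32 and 2.84 FPKM in EAT adipocytes, 19.6, 14.3 and 19.8 FPKM in IAT SVCs, and 25.8, 23.4 and 21.0 FPKM in EAT SVCs. Every SVC library was above every adipocyte library, and the depots overlapped in adipocytes but not in SVCs. Nrp2 fell in adipocytes relative to SVCs, to 13.7% of the SVC mean in IAT (log2 difference -2.45 ± 0.15, adjusted p = 7.4e-09) and 11.5% in EAT (-2.74 ± 0.15, adjusted p = 2.3e-09). The ratio of Nrp1 to Nrp2 was 12.0 ± 1.62 in IAT adipocytes, 10.5 ± 2.36 in EAT adipocytes, 3.53 ± 0.442 in IAT SVCs and 2.78 ± 0.290 in EAT SVCs. Nrp1 was the higher neuropilin in all 12 libraries, by a wider margin in adipocytes.

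**Figure D3:**
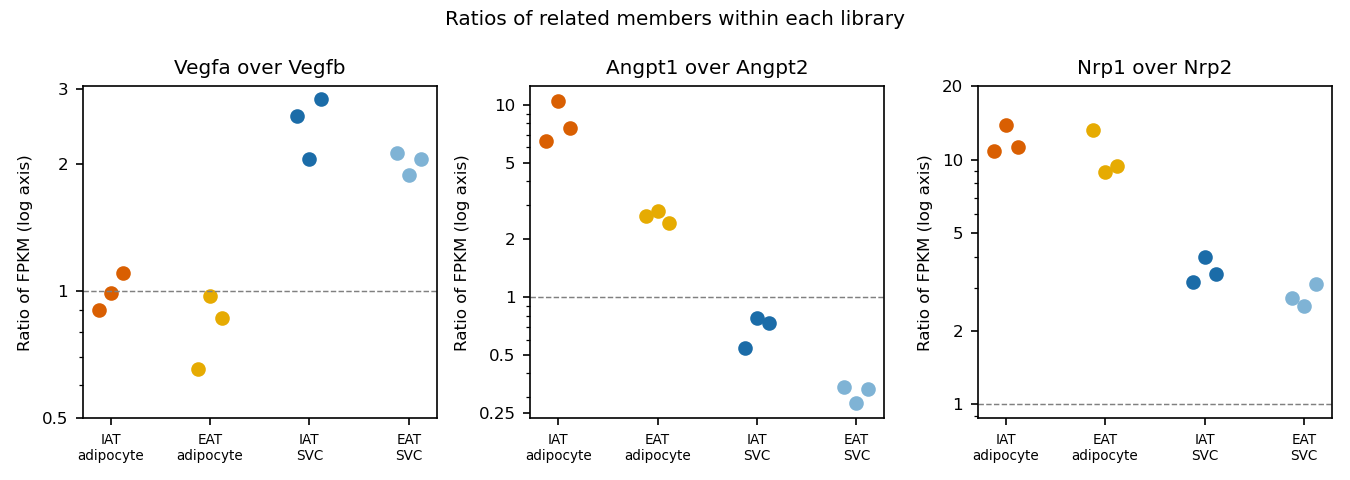
Ratio of FPKM within each library (log axes, a point per library) for Vegfa over Vegfb, Angpt1 over Angpt2 and Nrp1 over Nrp2, in IAT adipocytes, EAT adipocytes, IAT SVCs and EAT SVCs, with a dashed line at 1. Angpt1 over Angpt2 lies between 2.43 and 10.5 in adipocytes and between 0.280 and 0.779 in SVCs.

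Set beside the markers of endothelial cells, the SVC-side genes fell into different places. The mean level of the 15 endothelial markers in adipocytes was 2.44% to 30.5% of that in SVCs in IAT (median 19.7%) and 4.18% to 24.9% in EAT (median 16.9%). Nrp1, at 46.5% in IAT and 41.7% in EAT, was above all 15 in both depots. Angpt2 was above 5 of the 15 in IAT and 2 in EAT, Pgf above 11 in IAT and 5 in EAT, and Vegfc and Nrp2 above 1 in each depot. Fibroblast markers reached at most 8.57% in IAT and 12.2% in EAT, and macrophage markers at most 6.26% in IAT and 15.7% in EAT. Of the 10 mural cell markers, Mcam (381% in IAT, 488% in EAT) and Cspg4 (347% in IAT, 117% in EAT) were above Nrp1 in both depots, and Acta2 (77.7%) in EAT. The part of these cells in the level of each gene was not tested.

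Relative to Kdr, the main signalling receptor for VEGF-A on endothelium, the neuropilins behaved differently from each other. Nrp1 over Kdr was 2.28 ± 0.380 in IAT adipocytes, 2.77 ± 0.733 in EAT adipocytes, 1.04 ± 0.131 in IAT SVCs and 1.14 ± 0.0634 in EAT SVCs. Nrp2 over Kdr was 0.190 ± 0.00767 in IAT adipocytes, 0.263 ± 0.0169 in EAT adipocytes, 0.295 ± 0.00182 in IAT SVCs and 0.411 ± 0.0199 in EAT SVCs. No group overlapped another in the second ratio, whose spread within groups was small. EAT adipocyte replicate 1, with the lowest Nrp2 level (1.90 FPKM) and the lowest Kdr level (6.93 FPKM) of its group, had a ratio of 0.274, next to 0.272 in replicate 2.

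**Figure D4:**
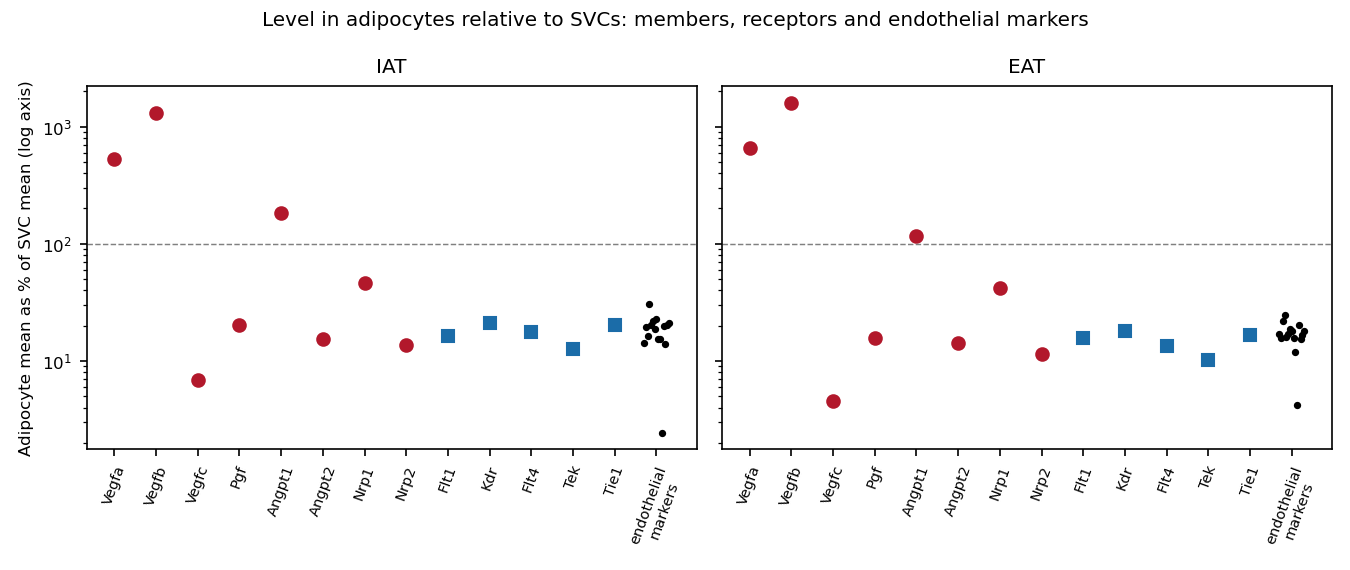
Mean level in adipocytes as a percent of that in SVCs (log axis) in IAT and in EAT for the 8 genes (circles), 5 receptors (squares) and 15 endothelial markers (dots), with a dashed line at 100%. Vegfa, Vegfb and Angpt1 lie above the line, and Nrp1 (46.5% in IAT, 41.7% in EAT) lies between it and the endothelial markers.

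Counted over the fraction comparison, 3 genes were called higher and 5 lower in adipocytes than in SVCs of IAT, where 83.7% of all tested features were called (29.8% higher and 53.9% lower). In EAT, 2 were called higher, 5 lower and 1, Angpt1, was not called, where 83.8% of all features were called (31.1% higher and 52.7% lower). All 8 genes had groups that did not overlap in both depots, as did 88.3% of all features in IAT and 83.1% in EAT. A share of calls this close to that of all features says little about these genes as a set. The median log2 difference of the 8 was -1.45 in IAT and -1.68 in EAT, beside -0.34 and -0.31 over all features. Median-of-ratios scaling moved the median of all features to 0.02 in IAT and 0.03 in EAT and the calls to 5524 higher and 5316 lower in IAT, beside 3921 higher and 7107 lower on FPKM, and to 5544 higher and 5314 lower in EAT, beside 4093 higher and 6948 lower. All 8 genes kept their direction in both depots under that scaling.

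The depot comparison asked how IAT differed from EAT within a fraction. In adipocytes, 2 of the 8 genes were called, both higher in IAT, where 37.6% of all features were called (10.3% higher and 27.3% lower). That was 1363 features higher and 3597 lower, or 2129 higher and 2195 lower under median-of-ratios scaling. Angpt1 was 2.69 times as high in IAT adipocytes as in EAT adipocytes (8.96 ± 0.544 FPKM and 3.33 ± 0.0975 FPKM, log2 difference 1.20 ± 0.09, adjusted p = 5.0e-07). Vegfa was 1.28 times as high (156 ± 13.0 FPKM in IAT adipocytes and 122 ± 13.2 FPKM in EAT adipocytes, log2 difference 0.35 ± 0.09, adjusted p = 0.00907), and this call was lost when values were rescaled to TPM (0.32, adjusted p = 0.0879). These were the 2 genes whose depots did not overlap, as against 48.3% of all features. The other 6 gave log2 differences of -0.30 ± 0.20 for Pgf (adjusted p = 0.274) to 0.15 ± 0.08 for Vegfc (adjusted p = 0.17). Under median-of-ratios scaling Nrp1 (0.24, adjusted p = 0.0348) and Vegfc (0.24, adjusted p = 0.0481) were also called.

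In SVCs, 5 of the 8 were called, 3 higher and 2 lower in IAT, where 40.2% of all features were called (14.0% higher and 26.2% lower), and 6 did not overlap, as against 55.1% of all features. Over all features, 1843 were higher and 3458 lower, or 2413 and 2463 under median-of-ratios scaling and 1436 and 4379 as TPM. Vegfa was 1.59 times as high in IAT SVCs as in EAT SVCs (29.7 ± 1.39 FPKM and 18.7 ± 1.00 FPKM, log2 difference 0.64 ± 0.09, adjusted p = 1.1e-04). Angpt1 was 1.71 times as high (4.86 ± 0.291 FPKM and 2.84 ± 0.450 FPKM, log2 difference 0.61 ± 0.09, adjusted p = 1.2e-04). Pgf fell to 9.57 ± 2.98 FPKM in IAT SVCs, against 16.8 ± 1.92 FPKM in EAT SVCs (log2 difference -0.78 ± 0.20, adjusted p = 0.00777). Angpt1 and Vegfa were thus called higher in IAT in both fractions. The depot difference of Pgf was not shown to differ between the fractions (interaction 0.49 ± 0.29, adjusted p = 0.219).

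The other SVC differences were smaller. Vegfb was 1.30 times as high in IAT SVCs (log2 difference 0.34 ± 0.10, adjusted p = 0.0143), and the call was lost without EAT SVC replicate 3 (adjusted p = 0.0628) or IAT SVC replicate 2 (adjusted p = 0.0734). Vegfc was at 84.4% of the EAT level in IAT SVCs (log2 difference -0.23 ± 0.08, adjusted p = 0.0464), a call lost in 11 of 20 alternatives, with adjusted p between 0.0275 and 0.261 over all 20. Those were 2 smaller pseudocounts, median-of-ratios scaling, the replicate block and leaving out EAT adipocyte replicate 3 (adjusted p = 0.0583), IAT adipocyte replicate 2 (0.0592), EAT SVC replicate 2 (0.158) or 3 (0.0835), or IAT SVC replicate 1 (0.0706), 2 (0.1) or 3 (0.123). Angpt2 (-0.28 ± 0.11, adjusted p = 0.0572) and Nrp2 (-0.38 ± 0.15, adjusted p = 0.0721) just missed the threshold. Without EAT adipocyte replicate 1, which changes the shared estimate of the spread, Angpt2 (adjusted p = 0.0449) and Nrp2 (adjusted p = 0.0204) were called, and Angpt2 was also called without IAT SVC replicate 1 (adjusted p = 0.0106). Nrp1 gave -0.05 ± 0.08 (adjusted p = 0.671).

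**Figure D5:**
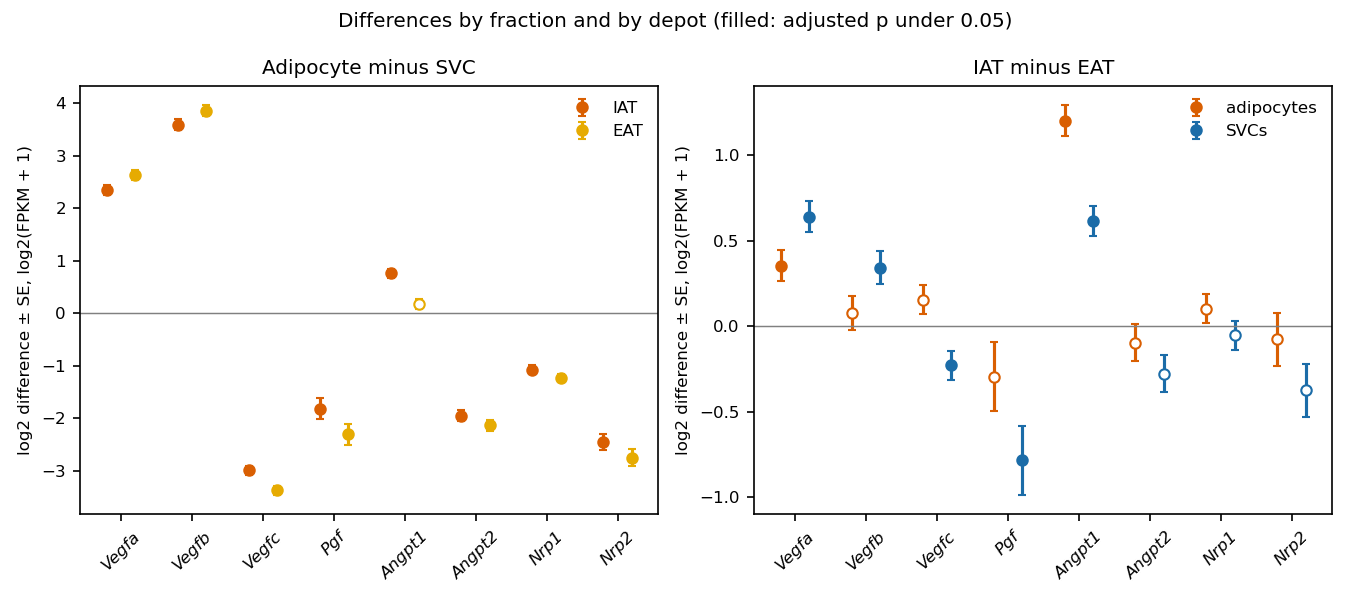
Log2 differences ± SE of log2(FPKM + 1) for the 8 genes, adipocyte minus SVC in IAT and in EAT on the left and IAT minus EAT in adipocytes and in SVCs on the right, with filled points for an adjusted p under 0.05. Angpt1 has the largest of these depot differences in adipocytes (1.20 ± 0.09).

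The SVCs of the depots also differed in the levels of cell type markers. Mesothelial markers summed to 1.54 to 2.29 FPKM in IAT SVCs and 412 to 480 FPKM in EAT SVCs, macrophage markers to 2167 to 2369 FPKM in IAT SVCs and 4039 to 4226 FPKM in EAT SVCs, and lymphocyte markers to 336 to 505 FPKM in IAT SVCs and 93.4 to 99.2 FPKM in EAT SVCs. Of the defining mesothelial markers, Wt1 was at 0 in all IAT SVC libraries. Adipocyte markers summed to 185 to 211 FPKM in IAT SVCs and 66.1 to 80.3 FPKM in EAT SVCs. All 8 of them were called higher in IAT SVCs, beside 14.0% of all features. In adipocytes, the macrophage markers summed to 76.6 to 114 FPKM in IAT and 446 to 561 FPKM in EAT. Endothelial markers were called higher in IAT for 8 of 15 in adipocytes, beside 10.3% of all features, and 7 of 15 in SVCs, beside 14.0%, and none was called lower. The part of these cells in the depot differences of the 8 genes was not tested.

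Whether a depot difference differed between the fractions was tested as an interaction, the IAT minus EAT difference in adipocytes less that in SVCs. It was called for 2 of the 8 genes, both positive, where 32.5% of all features were called (14.7% positive and 17.8% negative). For Angpt1 the depot difference was larger in adipocytes by 0.59 ± 0.13 (log2, adjusted p = 0.00336), and this held in all 19 alternatives (adjusted p between 6.0e-04 and 0.011). For Vegfc the interaction was 0.38 ± 0.12 (adjusted p = 0.0268), from 0.15 ± 0.08 in adipocytes and -0.23 ± 0.08 in SVCs. That call was lost on leaving out EAT adipocyte replicate 2 (adjusted p = 0.0531), IAT adipocyte replicate 2 (0.0637) or 3 (0.0748), EAT SVC replicate 2 (0.0637), or IAT SVC replicate 2 (0.0506) or 3 (0.061). Vegfa, at -0.29 ± 0.13 (adjusted p = 0.112), was called without EAT adipocyte replicate 1 (-0.37, adjusted p = 0.0174).

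Flt1, Kdr, Flt4 and Tek, receptors of these ligands, and Tie1, which pairs with Tek, all fell in adipocytes relative to SVCs in both depots. Over all features, 53.9% fell in IAT and 52.7% in EAT. The median log2 difference of these 5 receptors was -2.23 in IAT and -2.47 in EAT, beside -0.34 and -0.31 over all features. Kdr was at 12.9 ± 2.05 FPKM in IAT adipocytes and 60.8 ± 10.7 FPKM in IAT SVCs (log2 difference -2.14 ± 0.19, adjusted p = 2.0e-07). Tek, the angiopoietin receptor, was at 4.96 ± 0.893 FPKM in IAT adipocytes and 38.8 ± 3.82 FPKM in IAT SVCs (log2 difference -2.75 ± 0.13, adjusted p = 3.6e-10). Between depots, Tie1, the orphan partner of Tek, was higher in IAT in adipocytes (0.58 ± 0.12, adjusted p = 0.00245) and in SVCs (0.34 ± 0.12, adjusted p = 0.0419), and Tek in adipocytes (0.44 ± 0.13, adjusted p = 0.0187). Flt1, Kdr and Flt4 were not called between depots in either fraction. Kdr and Tie1 are also among the 15 endothelial markers.

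Among 14 other secreted angiogenic factors, 5 rose and 8 fell in IAT adipocytes relative to IAT SVCs (median log2 difference -0.41), and 2 rose and 10 fell in EAT (median -1.39). Over all features, 29.8% rose and 53.9% fell in IAT (median -0.34), and 31.1% rose and 52.7% fell in EAT (median -0.31), so the calls and the median in IAT lay near those of all features. Figf fell less in IAT, to 15.0 ± 1.47 FPKM in IAT adipocytes, against 19.9 ± 0.264 FPKM in IAT SVCs, than in EAT, with 12.1 ± 1.08 FPKM in EAT adipocytes and 38.6 ± 1.12 FPKM in EAT SVCs (interaction 1.20 ± 0.11, adjusted p = 5.4e-06). Angptl4, a lipase inhibitor that also acts on vessels, was at 843 ± 32.6 FPKM in IAT adipocytes and 108 ± 1.79 FPKM in IAT SVCs (log2 difference 2.95 ± 0.07, adjusted p = 1.1e-12). Cxcl12, the ligand of Cxcr4, was at 15.2 ± 1.82 FPKM in IAT adipocytes and 155 ± 2.57 FPKM in IAT SVCs (-3.27 ± 0.08, adjusted p = 8.2e-13). Between depots, 6 factors rose and 3 fell in IAT adipocytes relative to EAT adipocytes, and 4 rose and 6 fell in SVCs. Over all features, 10.3% rose and 27.3% fell in adipocytes, and 14.0% rose and 26.2% fell in SVCs. Adm, the vasodilator adrenomedullin, was at 45.1 ± 6.33 FPKM in IAT adipocytes and 21.3 ± 3.87 FPKM in EAT adipocytes (1.05 ± 0.12, adjusted p = 2.5e-05). Fgf1 was at 2.79 ± 0.0726 FPKM in IAT SVCs and 50.9 ± 2.46 FPKM in EAT SVCs (-3.77 ± 0.07, adjusted p = 1.2e-12).

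The other ligands of the neuropilin complex are the class 3 semaphorins, which signal through plexins. Of 12 measured semaphorins and plexins, 10 fell and none rose in adipocytes relative to SVCs in each depot, with medians of -1.26 in IAT and -1.46 in EAT. Over all features 83.7% were called in IAT and 83.8% in EAT, so the share of calls was that of all features, of which 53.9% fell in IAT (median -0.34) and 52.7% in EAT (median -0.31). Sema3c was at 5.08 ± 0.281 FPKM in IAT adipocytes and 12.6 ± 0.673 FPKM in EAT adipocytes (log2 difference -1.16 ± 0.08, adjusted p = 3.5e-07), while Sema3b was at 3.37 ± 0.0702 FPKM in IAT adipocytes and 1.04 ± 0.0893 FPKM in EAT adipocytes (1.10 ± 0.08, adjusted p = 6.8e-07). In SVCs, 2 of the 12 rose and 7 fell in IAT relative to EAT, where 14.0% of all features rose and 26.2% fell. Sema3a, a ligand of Nrp1, was at 0.366 ± 0.0423 FPKM in IAT SVCs and 1.29 ± 0.0155 FPKM in EAT SVCs (-0.74 ± 0.05, adjusted p = 6.0e-08). Sema3a passed the filter only through the EAT SVC libraries, where it is high, so that call is not independent of the filter. Its means in the other groups lay below 1 FPKM.

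Inhibitors of vessel growth did not all share a direction. Of 8, 2 rose and 4 fell in adipocytes relative to SVCs in IAT, and 1 rose and 7 fell in EAT. Over all features 29.8% rose and 53.9% fell in IAT, near the shares of these 8, and 31.1% rose and 52.7% fell in EAT. Their median log2 difference was -1.003 in IAT and -0.86 in EAT, beside -0.34 and -0.31 over all features. Thbs1 (thrombospondin) was at 155 ± 10.5 FPKM in IAT adipocytes and 486 ± 77.3 FPKM in EAT adipocytes (log2 difference -1.63 ± 0.14, adjusted p = 2.7e-06), and at 35.4 ± 6.78 FPKM in IAT SVCs and 184 ± 14.6 FPKM in EAT SVCs (-2.36 ± 0.14, adjusted p = 4.4e-08). Serpinf1, which encodes pigment epithelium-derived factor, went the other way in SVCs, with 744 ± 46.9 FPKM in IAT SVCs and 298 ± 4.86 FPKM in EAT SVCs (1.31 ± 0.11, adjusted p = 8.7e-07). Cxcl10, an angiostatic chemokine, was 7.30 times as high in IAT adipocytes as in EAT adipocytes (2.84 ± 0.18, adjusted p = 1.3e-07).

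Known regulators of Vegfa, and other genes that respond to hypoxia, were read from the same libraries. Of 13 measured hypoxia factors and targets, 3 rose and 8 fell in adipocytes relative to SVCs in IAT (median log2 difference -0.36), and 5 rose and 6 fell in EAT (median -0.19), near the medians of all features, of which 29.8% rose and 53.9% fell in IAT and 31.1% rose and 52.7% fell in EAT. Bnip3, a mitophagy gene induced by hypoxia, was at 310.0 ± 25.1 FPKM in IAT adipocytes and 12.9 ± 0.467 FPKM in IAT SVCs (4.48 ± 0.10, adjusted p = 4.8e-13). Ddit4, a stress-induced brake on mTOR signalling, was at 12.2 ± 1.56 FPKM in IAT adipocytes and 67.0 ± 0.419 FPKM in IAT SVCs (-2.37 ± 0.09, adjusted p = 4.4e-11). The coactivators Ppargc1a and Ppargc1b and the receptor Esrra, which are known to drive Vegfa in muscle without hypoxia factors, rose in adipocytes in both depots, 3 of 3, as did 29.8% of all features in IAT and 31.1% in EAT. Ppargc1a and Ppargc1b passed the filter through adipocyte libraries, where they are high, so their calls are not independent of the filter. Their SVC means were 0.112 and 0.840 FPKM in IAT, and 0.110 and 0.602 FPKM in EAT. Ppargc1a was at 1.70 ± 0.141 FPKM in IAT adipocytes and 0.933 ± 0.175 FPKM in EAT adipocytes (0.48 ± 0.07, adjusted p = 1.6e-04). None of the 3 was called between the SVCs of the depots.

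The genes whose pattern was most like each member were ranked by Pearson r of log2(FPKM + 1) over the 12 libraries, among 7953 genes with a mean of at least 5 FPKM. All points share the split into fractions, which alone gives high values of r. The closest to Vegfa was Gpd1 (r = 0.998), to Vegfb Pxmp2 (r = 0.999), to Vegfc Scara3 (r = 0.9985), to Pgf Apln (r = 0.992), to Angpt1 H2-Q10 (r = 0.973), to Angpt2 Ets2 (r = 0.997) and to Nrp1 Ddx3x (r = 0.998). Among these 7 members Angpt1 had the lowest best match. After the group means were taken out, r over the same 12 libraries was 0.971 for Nrp1 with Ddx3x. It was 0.89 for Angpt2 with Ets2, 0.826 for Pgf with Apln, 0.816 for Vegfb with Pxmp2 and 0.489 for Vegfa with Gpd1. For Vegfc with Scara3 it was 0.077, and for Angpt1 with H2-Q10 -0.592. The likeness of the last 2 pairs thus rested on the group means. Each pair was picked on r over these same libraries, so these values are not independent of that choice.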

How the data were processed

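RNA sequencing values of 12 mouse libraries were used, in 4 groups of 3. The authors deposited a gene table in FPKM with confidence bounds for each library, laid out as by Cufflinks per the file headers. TopHat, Cufflinks and GRCm38 (mm10) are named in the submitters' processing notes, without versions. Annotation, read length and strand setting are not given in the sources used here. Of 24890 features, 9 with a failed estimate were left out. From the FPKM values, log2(FPKM + 1) was fitted with limma 3.58.1 (lmFit, eBayes with trend) in R 4.3.3, with 4 group means, for the 13175 features that reached 1 FPKM in 3 or more libraries. A Benjamini-Hochberg adjusted p under 0.05 was called. The procedure was tried on simulated data in which features were changed in IAT adipocytes only. That is a simpler setting than these data, and no result here rests on it. No count test was run: 57.4% to 62.4% of low values came out as whole fragments (within 0.02), too few to recover counts. Fragments were estimated from the bounds, which cover counting error only.

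The 8 genes and the lists were chosen with earlier results of these data known. Named genes were the 8 members, all 5 receptors, genes drawn from up to 3 members of each pathway list with the smallest p per comparison, and for each member the closest 2 genes by r. The closest gene to Nrp2 is not reported here. Deposited starts count from 0, and 1 was added. Promoters are RefSeq's (GRCm38.p6). Exon overlaps are from GENCODE vM21. Plots were made with Python 3.11.15 and matplotlib 3.10.9. Alternatives were other pseudocounts, filters and scalings, other fits, a replicate block and leaving out each library.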

Additional observations from a re-analysis of the deposited data

Results flagged for a closer look

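A pair of the 8 genes had a depot difference that itself differed between fractions, by the interaction test in limma. That test called 32.5% of all features, so the count says little about these genes as a set. For Angpt1, IAT minus EAT was 1.20 in adipocytes and 0.61 in SVCs on the log2 scale, a difference of 0.59 (adjusted p = 0.00336), with every IAT library above every EAT library in both fractions. For Vegfc, it was 0.15 in adipocytes and -0.23 in SVCs, a difference of 0.38 (adjusted p = 0.0268). That call was lost in 6 of 19 alternatives. The Vegfc levels overlapped between the depots in adipocytes and did not in SVCs, and its adipocyte values lay near 1 FPKM.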

How the results depend on the processing

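No called direction among the 40 member results reversed under any alternative, while 2 uncalled ones changed sign: Nrp2 between the adipocytes of the depots (-0.24 to 0.05) and Nrp1 between the SVCs (-0.16 to 0.05). In all, 29 kept their side of the threshold in all of them: 15 of 16 between fractions, 9 of 16 between depots and 5 of 8 in the interaction. The report gives the others, bar a fit on the compared groups alone, which called Nrp2 in the SVCs of the depots (adjusted p = 0.0355), and TPM, which called Angpt2 there (0.0415). All counts of called features stayed within 1.5 times: 10663 to 13494 between fractions in IAT, 10573 to 14465 in EAT, 3727 to 6516 between depots in adipocytes, 4259 to 7342 in SVCs and 3513 to 5619 in the interaction.

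Replicate numbers were not shown to pair libraries: deviations of same-numbered libraries correlated at -0.31 to 0.37 (5 of 18 pairs over 0.1), and 5 of 12 libraries correlated best with their own number. With the replicate number as a block, the counts were 11010 (IAT) and 11037 (EAT) between fractions, 4796 (adipocytes) and 5205 (SVCs) between depots and 4114 in the interaction. Under the block, Angpt2 in the SVCs of the depots (adjusted p = 0.0172) and the Pgf interaction (0.0493) were called, and Vegfc in the SVCs (0.0589) was not. Of the 8 genes, depth limits Vegfc in adipocytes most, with bounds 26.7% to 35.0% from its value.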
